A study of Mus musculus with 19 samples.

Results

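Expression of 10 genes that build or regulate epithelial cell contacts and the keratin cytoskeleton was followed across 19 libraries of mouse pluripotent and reprogrammed cells. The genes were chosen by name, with earlier results of these data known. All 10 were among the 12778 genes of the expression matrix: Cdh1, Epcam, Cldn4, Cldn6, Cldn7, Ocln, Esrp1, Krt7, Krt8 and Krt18. Induced pluripotent stem cells (iPSC) had been reprogrammed from mouse embryonic fibroblasts with Oct4, Sox2 and Klf4. Embryonic stem cells (ESC) were derived directly. RNA was profiled by sequencing the 3' ends of transcripts, and every culture was grown in medium with LIF and serum.

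The iPSC had gone through more than 18 passages by the time of collection and had 4 genotypes. WT iPSC had 3 libraries. The miR-290 knockout (KO), the miR-302 KO and the double KO, which lacks both microRNA clusters, had 2 colonies each with 2 libraries per colony. The ESC were miR-290 KO or miR-302 KO, with 2 libraries each, and WT ESC were not analysed here. Each KO colony is a separate derivation per the labels, which make an exception for the WT iPSC. The WT libraries may therefore share 1 derivation, and p-values against WT measure the spread between these samples, which may in part be technical. The sample titles name no colony for the ESC, and each ESC library was taken as a sample. Whether the 2 ESC libraries of a genotype are separate derivations was not checked, so the same limit may hold for them. The deleted microRNAs themselves were not analysed here, so the genotypes were not checked against them.

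Libraries held 6431558 to 24967255 recovered reads (median 17448902). Levels are in CPM (recovered reads divided by the total of the library and scaled alike for all). Means carry the SD over samples, and a sample is a colony (the mean of its 2 libraries), a WT library or an ESC library. A gene was called at a limma adjusted p under 0.05 over all 12778 genes. The double KO cells are labelled iPSC, and the design text allows for iPSC-like cells, but 10 pluripotency markers summed to 198 to 308 CPM in their libraries against 2904 to 4676 CPM in the other 15. In a bulk sample, fewer cells that express a gene and less RNA per cell cannot be told apart. Library 2 of miR-302 KO colony 1 had the lowest Cldn4, Cldn6 and Cldn7 among the 15 libraries outside the double KO. Library 2 of miR-290 KO colony 1 had the highest Cldn4, Cldn7, Krt7, Krt8 and Krt18 of all.

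Epithelial cells adhere to each other through E-cadherin, the product of Cdh1, and seal the space between them with tight junctions made of claudins and occludin. Keratins of the simple epithelial type form their intermediate filaments, in pairs of a type I and a type II chain. Mouse ESC grow as compact epithelial colonies and express E-cadherin and EpCAM, while fibroblasts express little of either, so that reprogramming of fibroblasts includes a mesenchymal-to-epithelial transition. ZEB and Snail family proteins are repressors of Cdh1 and other epithelial genes and bind E-box motifs of the sequence CAGGTG.

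Of 12 mature 3p microRNAs of the deleted clusters in the RefSeq table, 6 are shown. They were chosen because they hold the letters AAGUGCU at the seed or shifted by a base. The other 6 have other seeds, of which those of miR-290a-3p (AAGUGCC) and miR-291b-3p (AAGUGCA) differ from AAGUGCU in the last base. The seed (bases 2 to 8, in capitals) pairs with target transcripts. Mature sequences are from RefSeq (GRCm38.p6), 5′ to 3′, and the first 3 come from the miR-290 cluster on chromosome 7, the last 3 from the miR-302 cluster on chromosome 3.
miR-291a-3p: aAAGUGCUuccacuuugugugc
miR-294-3p: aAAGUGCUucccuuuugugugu
miR-295-3p: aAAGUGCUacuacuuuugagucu
miR-302b-3p: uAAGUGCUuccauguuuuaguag
miR-302d-3p: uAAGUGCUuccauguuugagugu
miR-302c-3p: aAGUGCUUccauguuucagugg
The seed AAGUGCU was identical in the first 5, and in miR-302c-3p the same letters were shifted by a base.

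Of the 10 genes, 9 were lower in double KO iPSC than in WT iPSC and 0 were higher. Over all genes tested, 21.5% were lower and 27.4% higher. Because the genes were chosen with earlier results known, the contrast with these shares is a description. The median log2 fold change of the 10 genes was −4.63, against 0.16 for all genes, and −5.45 with Cldn7, which had 0 reads in the double KO, set to its bound. Centring the libraries moved the median of all genes to 0.02 and changed none of the 10 calls. For 7 of the genes (Cdh1, Epcam, Cldn4, Cldn6, Cldn7, Krt8 and Krt18) each double KO library lay below the lowest of the other 15 libraries. That held for 12.0% of all genes with recovered reads. Ocln was the gene that did not pass in this comparison. The single KO groups had 0 of 10 called against WT.

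**Figure D1:**
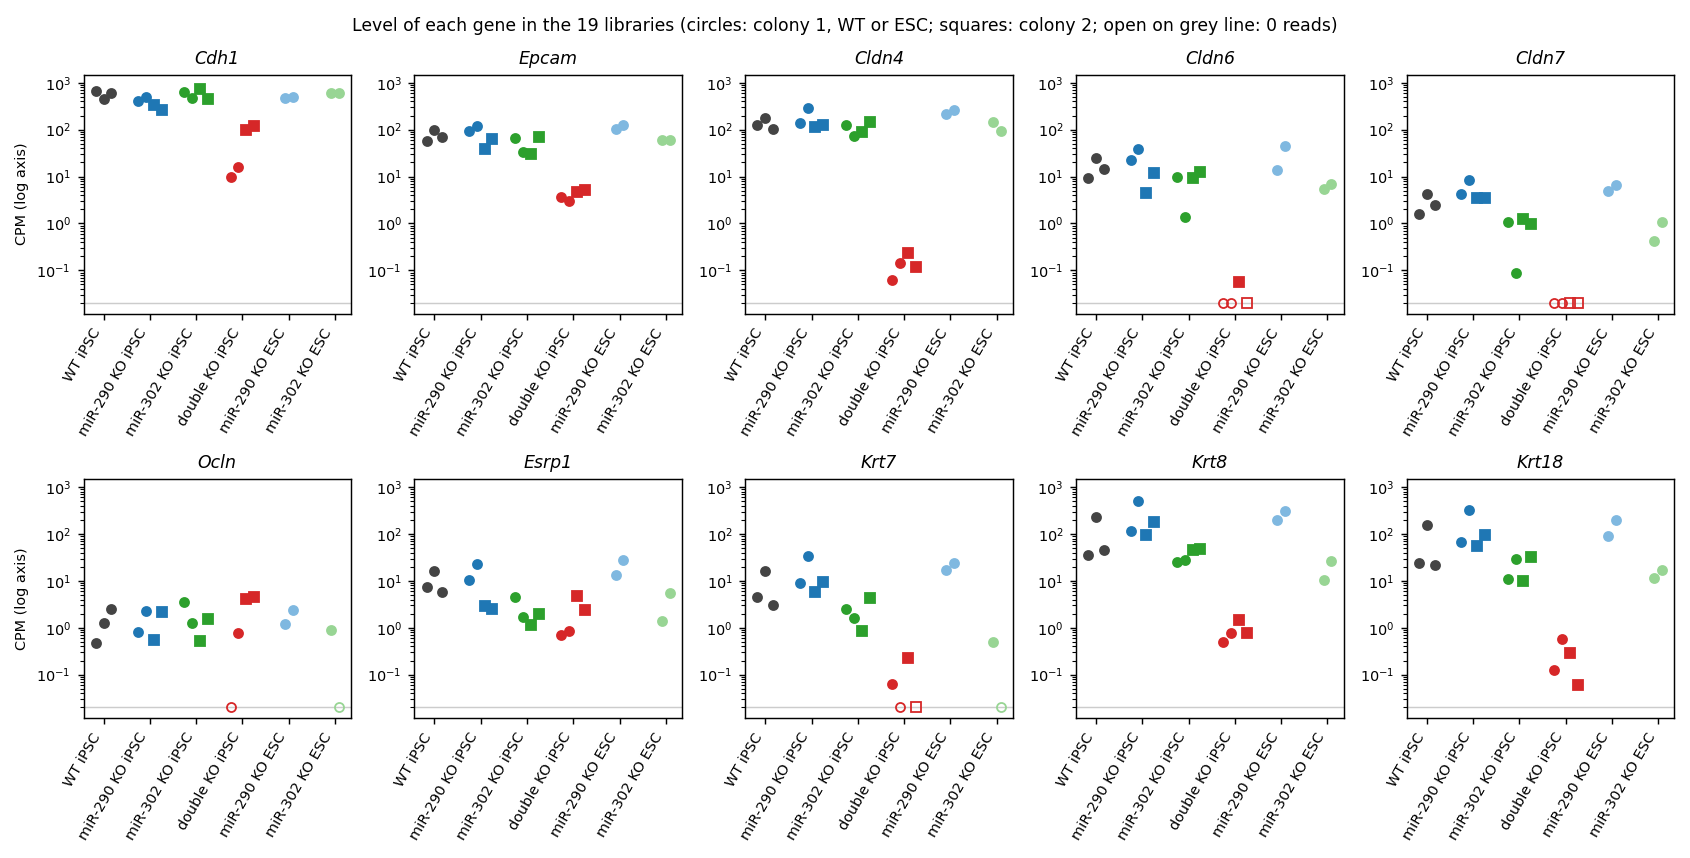
CPM on a log axis (vertical) of each of the 10 genes in each of the 19 libraries, by group. Red double KO points lie below every other library for Cdh1, Epcam, Cldn4, Cldn6, Cldn7, Krt8 and Krt18, Cdh1 and Ocln are split by double KO colony, and open symbols on the grey line are libraries with 0 reads.

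Cdh1 (chromosome 8, 106603350 to 106670247, GRCm38.p6), which encodes the adherens junction cadherin of epithelia, had 654, 456 and 605 CPM in WT. In the double KO, colony 1 had 9.85 and 16.0 CPM, and colony 2 had 99.9 and 120 CPM. The double KO was thus low in both colonies, without overlap with WT, and colony 1 was far lower than colony 2. The log2 fold change was −3.92 (SE 0.60, limma adjusted p 0.000193), from 572 ± 103 CPM (SD, n = 3 libraries) to 61.3 ± 68.4 CPM (n = 2 colonies). With colony 1 left out it was −2.37 and with colony 2 left out −5.47, and the gene was called both times, with 1 colony left in the double KO that is assumed to vary like the other groups. In the single KO iPSC, Cdh1 had 403 and 499 CPM in colony 1 and 337 and 260 CPM in colony 2 of the miR-290 KO, and 651, 483, 753 and 454 CPM in the miR-302 KO. The ESC had 483 and 496 CPM in the miR-290 KO and 593.7 and 616 CPM in the miR-302 KO. Ordered by mean, the groups ran from miR-302 KO ESC through miR-302 KO iPSC, WT, miR-290 KO ESC and miR-290 KO iPSC to the double KO. With colonies as samples, the first 4 groups overlapped with their neighbours and the last 2 steps did not, while single libraries of the miR-290 KO iPSC reached into the range of the miR-290 KO ESC.

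Epcam (chromosome 17, 87635979 to 87651127), which encodes an epithelial adhesion molecule that is also a surface marker of ESC, had 57.6, 96.4 and 70.0 CPM in WT. The double KO had 3.66 and 2.995 CPM in colony 1 and 4.76 and 5.23 CPM in colony 2. All 4 libraries were low to a like degree. The log2 fold change was −4.12 (SE 0.32, limma adjusted p 5.91e-07). The single KO iPSC ranged from 31.0 to 122 CPM over 8 libraries. The miR-290 KO ESC, at 103 and 128 CPM, were the highest group by mean, but the sample ranges of neighbouring groups overlapped down to the miR-302 KO ESC (58.8 and 59.4 CPM).

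Claudins form the transmembrane strands of tight junctions. Each of the 3 claudin genes had at most 9 reads in the 4 double KO libraries together. Cldn4 (chromosome 5, 134945123 to 134946934) had 124, 174 and 102 CPM in WT. In the double KO it had 1 and 2 reads in colony 1 and 4 and 2 reads in colony 2, between 0.063 and 0.23 CPM. The ratio of WT to double KO in summed reads was 967 (exact 95% interval 509 to 2116), and the log2 fold change −8.89 (SE 0.29, limma adjusted p 2.28e-10). Reads were amplified and carry no molecular identifiers, so such intervals and floors reflect counting error alone. The fitted Cldn4 change ran from −9.08 to −6.85 over the alternative settings. Among the other groups Cldn4 lay between 73.5 and 286 CPM per library. It was highest in the miR-290 KO ESC (221 and 259 CPM), whose range did not overlap with that of the next group, the miR-290 KO iPSC by colony.

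Cldn6 (chromosome 17, 23679348 to 23682446), a claudin of embryonic epithelia and stem cells, had 9.11, 24.5 and 14.6 CPM in WT. The 4 double KO libraries together held 1 read, in colony 2, and WT held 845. Scaled for depth, WT exceeded the double KO by a ratio of 1037, with an exact 95% interval of 186 to 41007. The log2 fold change was −6.60 (SE 0.71, limma adjusted p 1.1e-05). Cldn7 (chromosome 11, 69964779 to 69967886), whose protein forms a complex with EpCAM, had 1.62, 4.16 and 2.48 CPM in WT and 0 reads in each double KO library. With a floor of 3 reads over the group, it was at least 59.3-fold lower (145 reads in WT; limma adjusted p 5.68e-05). Both genes were also uneven among the other groups. Cldn6 ran from 1.35 CPM in library 2 of miR-302 KO colony 1 to 45.1 CPM in library 2 of the miR-290 KO ESC. Cldn7 ran from 0.090 CPM to 8.502 CPM, in libraries 2 of miR-302 KO colony 1 and of miR-290 KO colony 1.

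Promoter windows of 250 bases before to 50 after a gene start were available from RefSeq (GRCm38.p6) for 8 of the 10 genes, in 10 windows, Ocln and Cldn7 having 2 each. No window was available for Cdh1 and Esrp1, so the search does not cover these genes. The windows were searched for the E-box CAGGTG and its reverse complement CACCTG, which covers both strands. At least 1 match was found in 9 of the 10 windows and in each of the 8 genes, against 20.2% of the 32851 windows in the table and 22.6% of its genes. Epcam, Cldn4, Cldn6, Cldn7 (its second window) and Ocln had 2 matches in a window, against 2.88% of all windows. A match is a description of the letters and not a binding site. The windows of the 4 called genes with 2 matches are shown, 5′ to 3′ on the gene's strand, with the matches in capitals. They lie at chr17:87635729-87636028 (+ strand, Epcam), chr5:134946885-134947184 (- strand, Cldn4), chr17:23679115-23679414 (+ strand, Cldn6), chr11:69965171-69965470 (+ strand, Cldn7).
Epcam: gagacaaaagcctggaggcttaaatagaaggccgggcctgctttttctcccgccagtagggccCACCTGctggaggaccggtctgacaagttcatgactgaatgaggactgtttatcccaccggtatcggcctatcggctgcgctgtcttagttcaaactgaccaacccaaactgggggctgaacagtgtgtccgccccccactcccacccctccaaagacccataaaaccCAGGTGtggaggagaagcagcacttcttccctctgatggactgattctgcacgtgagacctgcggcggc
Cldn4: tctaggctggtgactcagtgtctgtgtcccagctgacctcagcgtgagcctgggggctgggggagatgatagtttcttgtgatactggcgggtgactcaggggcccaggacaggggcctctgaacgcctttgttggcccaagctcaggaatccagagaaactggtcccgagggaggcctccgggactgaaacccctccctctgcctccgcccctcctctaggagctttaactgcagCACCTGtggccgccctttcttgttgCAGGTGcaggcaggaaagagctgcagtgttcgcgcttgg
Cldn6: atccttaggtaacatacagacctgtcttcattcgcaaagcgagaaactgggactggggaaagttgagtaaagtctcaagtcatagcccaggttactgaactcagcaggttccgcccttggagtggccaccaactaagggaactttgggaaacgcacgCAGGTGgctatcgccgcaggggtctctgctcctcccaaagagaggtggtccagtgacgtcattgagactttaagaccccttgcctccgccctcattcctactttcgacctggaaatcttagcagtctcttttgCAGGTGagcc
Cldn7: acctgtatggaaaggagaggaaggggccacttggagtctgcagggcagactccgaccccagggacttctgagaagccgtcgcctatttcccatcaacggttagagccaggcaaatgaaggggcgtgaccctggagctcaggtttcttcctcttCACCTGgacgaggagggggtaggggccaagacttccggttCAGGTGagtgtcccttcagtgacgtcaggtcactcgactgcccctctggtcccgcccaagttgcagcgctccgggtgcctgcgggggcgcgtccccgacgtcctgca
Positions are counted from the start that each window is set on. The matches began at bases −187 and −19 in Epcam, −14 and 12 in Cldn4, −93 and 41 in Cldn6 and −97 and −57 in Cldn7. For Cldn7 this start lies within the gene, and the window at the start given above (69964779) had 0 matches. Krt7 (−44), Krt8 (−111) and Krt18 (−214) had 1 match each. Ocln, the gene that was not called, had 2 matches (−213 and −68) in 1 window. Its other window, set on the start at 100552718, overlaps the first. The 1 match there is the site at −213 again, at base 8 from that start.

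Ocln (chromosome 13, 100496504 to 100552718), the gene of the tight junction protein occludin, was weakly expressed throughout. WT had 0.485, 1.27 and 2.55 CPM. The double KO had 0 and 0.784 CPM in colony 1 and 4.19 and 4.51 CPM in colony 2. Colony 1 lay below most libraries outside the double KO, and colony 2 lay above all of them (highest 3.547 CPM). The group comparison gave a log2 fold change of −0.06 (SE 1.06, 95% interval −2.37 to 2.24, limma adjusted p 0.967), an interval wide enough to hold a change of 4-fold either way. Without colony 1 the value was 1.75 and without colony 2 it was −1.88. No pair of neighbouring groups was separated in their order by mean.

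Esrp1 (chromosome 4, 11331933 to 11386783) encodes an RNA-binding protein that directs epithelial splicing patterns. WT had 7.28, 16.3 and 5.71 CPM, and the double KO 0.695 and 0.856 CPM in colony 1 and 4.76 and 2.41 CPM in colony 2. All 4 double KO libraries were below WT, colony 2 only just. The log2 fold change was −2.31 (SE 0.85, limma adjusted p 0.0384). The call was lost without double KO colony 1 (−1.34, adjusted p 0.317), without WT library 2 (−1.87, 0.126) or WT library 1 (−2.45, 0.0613), and with no trend of the spread on the mean (0.0582). The miR-302 KO iPSC were also low, at 4.58, 1.71, 1.17 and 2.01 CPM (log2 fold change against WT −2.003, SE 0.85, adjusted p 0.307). The miR-290 KO was split by colony, with 10.3 and 22.8 CPM in colony 1 and 2.85 and 2.49 CPM in colony 2.

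The keratin genes Krt7 and Krt8 (type II) and Krt18 (type I), all on chromosome 15, encode filaments of simple epithelia. Krt8 (101996711 to 102004342) had 36.3, 226 and 44.5 CPM in WT, and the double KO had 0.505 and 0.784 CPM in colony 1 and 1.49 and 0.782 CPM in colony 2. Krt18 (102028216 to 102032026) had 24.1, 153 and 21.5 CPM in WT, and the double KO had 0.126 and 0.570 CPM in colony 1 and 0.287 and 0.060 CPM in colony 2. Krt7 (101412403 to 101427806) had 4.63, 16.4 and 3.10 CPM in WT and 5 reads in the double KO, of which 1 was in colony 1 and 4 in colony 2. In all 3 genes WT library 2 was well above the other WT libraries, and the double KO was still below the lowest of them. The log2 fold changes were −6.20 for Krt8 (SE 0.67, limma adjusted p 1.2e-05), −6.91 for Krt18 (SE 0.71, 7.29e-06) and −5.01 for Krt7 (SE 0.83, 0.000361). In summed reads WT exceeded the double KO by 119 for Krt8 (exact 95% interval 91.7 to 157), 281 for Krt18 (173 to 493) and 108 for Krt7 (46.1 to 336).

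**Figure D2:**
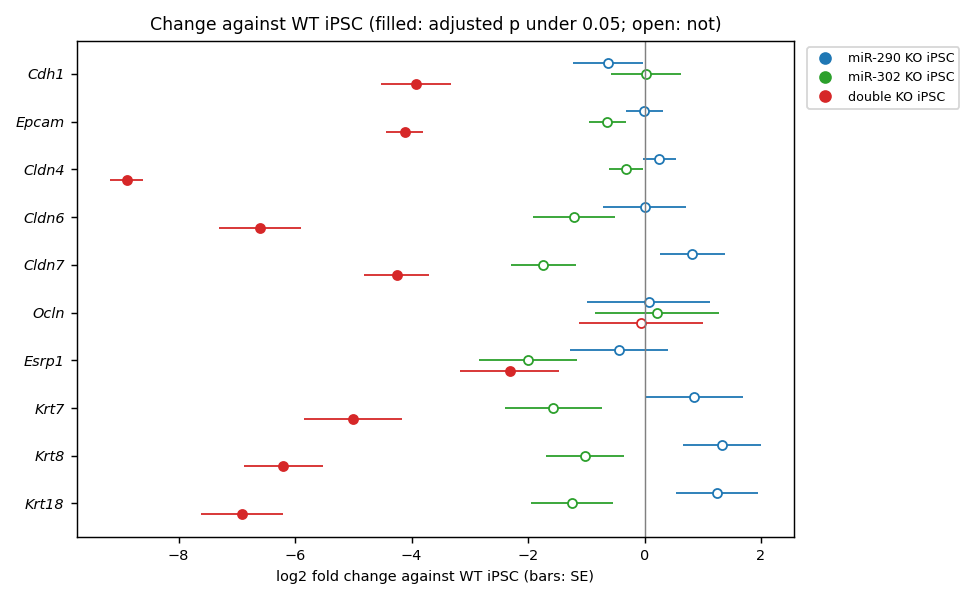
Log2 fold change against WT iPSC (horizontal, bars are SE) of the 10 genes in the 3 KO groups of iPSC. Red double KO points are filled and between −8.89 and −2.31 for 9 genes, Ocln sits at −0.06, and every single KO point is open.

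The single knockouts were compared with WT to ask what each cluster does alone. In the miR-290 KO, 0 of the 10 genes were called with limma (1.57% of all genes were), and 0 had an unadjusted p under 0.05. The largest values were those of Krt8 (1.33, SE 0.67, adjusted p 0.348) and Krt18 (1.25, SE 0.71, 0.407). Without library 2 of colony 1 they were 0.80 and 0.69. In the miR-302 KO, 0 of 10 were called (0.0313% of all genes), and 2 had an unadjusted p under 0.05, Cldn7 (−1.74, SE 0.56, adjusted p 0.263) and Esrp1. Cldn7 was called without miR-302 KO colony 2 (−2.34, adjusted p 0.0462). For Cdh1 the authors' deposited table of the miR-290 KO against WT lists −0.75 on the log2 scale, with an adjusted p of 0.0271. Here limma gave −0.63 (SE 0.60, 95% interval −1.94 to 0.67, adjusted p 0.641). That SE is pooled over all groups, the double KO with its unlike colonies included. With double KO colony 1 or colony 2 left out, the SE was 0.22 or 0.21. The change stayed at −0.63, and Cdh1 was still not called. Both miR-290 KO colonies (298 and 451 CPM) lay below the lowest WT library (456 CPM). Why the authors' result differs was not tested. The authors' deposited table of the double KO against WT lists 8 of the 10 genes, all lower, from −2.48 for Esrp1 to −10.20 for Cldn4. Krt8 and Ocln are not listed in that authors' deposited table, which holds no gene with an adjusted p above 0.05. The reason that these genes are not listed was not tested.

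Against the single KO groups, the double KO was lower in 8 of the 10 genes in each case, and Ocln and Esrp1 were not called. Of all genes, 16.8% were lower than in the miR-290 KO and 18.4% lower than in the miR-302 KO. Cldn4 differed from both by a wide margin (−9.15, SE 0.31, limma adjusted p 5.78e-10 against the miR-290 KO and −8.58, SE 0.31, 9.37e-10 against the miR-302 KO). Cldn7, with 0 reads in the double KO, was at least 105-fold lower than in the miR-290 KO (adjusted p 4.96e-05) and at least 19.9-fold lower than in the miR-302 KO (adjusted p 0.00488), where its level was itself low (0.845 ± 0.363 CPM, n = 2 colonies). The latter call was lost on the scale of log2 of CPM plus 1 (adjusted p 0.114). These comparisons share the double KO samples. Krt8 was lower by 7.53 (SE 0.74) and 5.18 (SE 0.74) on the log2 scale than in the miR-290 and miR-302 KO.

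Additivity was examined by subtracting from the change in the double KO the changes of the miR-290 KO and of the miR-302 KO. This term was below 0 and called in 8 of the 10 genes (11.7% of all genes), from −3.31 for Cdh1 (SE 0.89, limma adjusted p 0.0191) to −8.83 for Cldn4 (SE 0.42, 3.62e-08). It was −6.50 for Krt8 and −6.91 for Krt18. In Esrp1 it was 0.13 (SE 1.26, adjusted p 0.952), and in Ocln −0.35 (SE 1.57, 0.892). Without miR-290 KO colony 1 the number called was 5. Cdh1 (−3.01, adjusted p 0.0665), Cldn7 (−2.98, 0.0514) and Krt7 (−3.67, 0.0924) were lost. Krt7 was also lost without WT library 1 (0.0544), WT library 3 (0.0526), miR-302 KO colony 1 (0.0701) or double KO colony 1 (0.0724), and Cdh1 without miR-302 KO colony 1 (0.0586). On log2 of CPM plus 1 the Cldn7 term was −1.49 and not called (0.0669).

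The 2 colonies of the double KO differed in Cdh1 by 3.11 on the log2 scale, higher in colony 2 (SE 0.29, limma adjusted p 2.08e-05, over libraries). It was 1 of 10 genes called higher, against 1.82% of all genes. The colonies were shown apart because Cdh1 was already known to differ between them, so its call is no independent support. This fit has 2 libraries per colony, so its p-values speak of the spread between libraries of a colony and not between derivations. Ocln (3.63, SE 1.10, adjusted p 0.12) and Esrp1 (1.95, SE 0.74, 0.264) were higher in colony 2 without passing. The other 7 genes differed by −0.57 to 0.67 and were not called. Cldn7 had 0 reads in both colonies, and Cldn4 had 3 reads in colony 1 and 6 in colony 2.

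**Figure D3:**
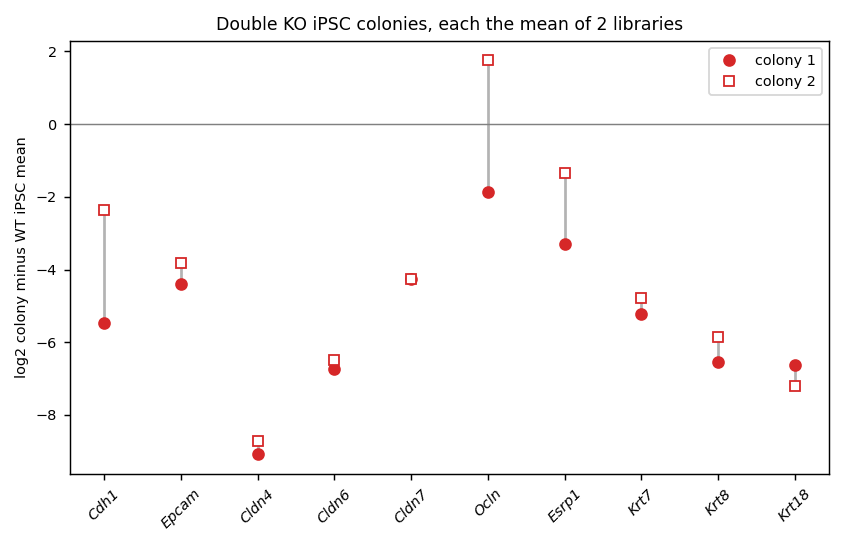
Log2 difference of each double KO colony (the mean of its 2 libraries) from the WT mean, for each of the 10 genes on the horizontal axis. Filled circles (colony 1) and open squares (colony 2) are far apart for Cdh1 (−5.47 and −2.37), Ocln (−1.88 and 1.75) and Esrp1 (−3.29 and −1.34) and close for the others.

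Outside the 10 genes, colony 2 was also higher in 8 of 53 related epithelial genes (1.82% of all genes) and lower in 1. These genes are named for their values, chosen after these were seen. The desmosomal cadherin gene Dsg2 had 267 and 235 CPM in colony 2 and 36.0 and 45.1 CPM in colony 1 (2.63, SE 0.26, limma adjusted p 3.49e-05). Krt17 had 5.57 and 6.02 CPM against 0.063 and 0 CPM, and Elf3, an epithelial transcription factor, 14.5 and 11.7 CPM against 0.189 and 1.07 CPM. Cldn3, F11r, Dsp, Krt42 and Klf5 were the other 5, and Jam2 was lower. Of the trophoblast markers, Cdx2 had 21.2 and 22.4 CPM in colony 2 and 0.758 and 0.285 CPM in colony 1 (5.15, SE 0.83, adjusted p 0.00249), and Tfap2c was also higher. Of the 11 listed trophoblast markers, Elf5, Tpbpa, Prl3d1 and Plac1 were not analysed here. The sum of the other 7 was 56.2 and 70.2 CPM in colony 2, 16.2 and 15.04 CPM in colony 1 and 83.0 to 187 CPM in WT. Its part in the colony difference was not tested.

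Keratin levels varied widely among cells other than the double KO. Krt8 had 117 and 506 CPM in colony 1 and 96.0 and 184 CPM in colony 2 of the miR-290 KO iPSC. In the miR-302 KO iPSC it had 25.2, 27.3, 46.1 and 47.9 CPM. The ESC had 201 and 315 CPM in the miR-290 KO and 10.6 and 26.5 CPM in the miR-302 KO. The miR-290 KO libraries were therefore all above the miR-302 KO libraries, in iPSC and in ESC alike, with WT spread across both. Krt18 followed, with 55.9 to 317 CPM in miR-290 KO iPSC, 9.99 to 32.4 CPM in miR-302 KO iPSC, 89.1 and 200 CPM in miR-290 KO ESC and 11.7 and 17.1 CPM in miR-302 KO ESC. Krt7 had 16.7 and 24.4 CPM in miR-290 KO ESC, and 0.489 and 0 CPM in miR-302 KO ESC.

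**Figure D4:**
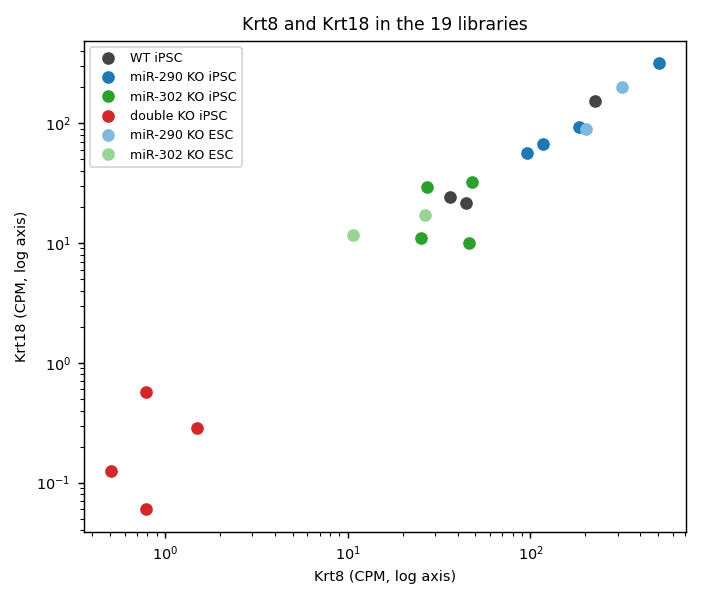
Krt18 against Krt8 (CPM, both axes log) in the 19 libraries. The double KO libraries form the lowest group (0.060 to 0.570 CPM of Krt18), the miR-302 KO libraries and the other WT libraries lie between, and the miR-290 KO libraries and WT library 2 are the highest.

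The direct comparison of the single KO groups did not pass in iPSC. Of the 10 genes, 0 were called with limma (2.25% of all genes were), and 4 had an unadjusted p under 0.05. They were Cldn7 (2.56 higher in the miR-290 KO, SE 0.61, adjusted p 0.0505), Krt18 (2.50, SE 0.77, 0.109), Krt8 (2.35, SE 0.74, 0.112) and Krt7 (2.42, SE 0.91, 0.182). These calls hang on the setting. The 4 genes were called with each library as a sample, which counts the 2 libraries of a colony as independent. With a colony correlation Krt7 was not called and the other 3 were. Cldn7 was the one called with a filter on low values (adjusted p 0.0493), and Krt8 (0.0433) and Krt18 (0.0332) were called without WT library 2. In ESC, Krt7 (6.09, SE 0.91, adjusted p 0.0152) and Krt8 (3.89, SE 0.74, 0.0397) were called higher in the miR-290 KO, against 0.376% of all genes. These p-values compare ESC libraries, which may not be separate derivations. Krt18 (3.23, SE 0.77, 0.0919) and Cldn7 (2.79, SE 0.61, 0.0679) were not called. Neither Krt7 (adjusted p 0.0868 to 0.221) nor Krt8 (0.0876 to 0.355) was called without library 1 or library 2 of the miR-290 KO ESC or without library 2 of the miR-302 KO ESC, where 1 library stands for a group and is assumed to vary like the others. Krt8 was also lost without library 1 of the miR-302 KO ESC (0.0741), without WT library 3 (0.0552) and without any 1 colony of the single KO iPSC (0.0555 to 0.0662). Over all 25 alternatives, the call in ESC was lost in 16 for Krt8 and in 5 for Krt7. Those of Krt8 included no trend, sample weights, the replicate block and each library as a sample. Whether the difference between the KO groups is unequal in iPSC and ESC was not tested.

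In each pair of single KO iPSC and ESC of the same genotype, 0 of the 10 genes were called with limma, as were 0% of all genes in both comparisons. At an unadjusted p under 0.05 there were 0 for the miR-290 KO and 1 for the miR-302 KO, Krt7 (2.84, SE 0.91, adjusted p 0.425). Krt7 had 2.46, 1.62, 0.866 and 4.41 CPM in miR-302 KO iPSC, above both ESC libraries.

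In WT, in the miR-290 KO iPSC and ESC and in the miR-302 KO iPSC, the library with the highest keratin levels in its group was also the highest in trophoblast markers. The 7 markers summed to 187 CPM in WT library 2 against 130 and 83.0 CPM in the other WT libraries, and to 215 CPM in library 2 of miR-290 KO colony 1 against 145 to 176 CPM in the other miR-290 KO iPSC. In miR-290 KO ESC they came to 270 CPM in library 2 and 178 CPM in library 1. In miR-302 KO iPSC they came to 139 CPM in library 2 of colony 2 and to 73.9 to 76.8 CPM in the others. Pluripotency markers summed to 2904, 3028 and 3078 CPM in the first 3 of these libraries, each the lowest of its group, but to 3639 CPM in the last, where the lowest of the group was 3450 CPM. In the miR-302 KO ESC the order was reversed, with 94.3 CPM of trophoblast markers in library 2, which had more Krt8 and Krt18, and 167 CPM in library 1. Tfap2c was a large part of these sums. Its mean was 83.9 CPM in WT, 69.1 CPM in miR-290 KO iPSC and 103 CPM in miR-290 KO ESC. In miR-302 KO iPSC the Tfap2c mean was 38.0 CPM, and in miR-302 KO ESC 64.6 CPM. The part of such markers in the keratin levels was not tested. Both Krt8 and Krt18 remained called in the double KO against WT without WT library 2.

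Patterns across samples were compared with Pearson's r over the 13 samples, as a description. The points share the double KO samples, which are far from the rest, and each colony value averages 2 libraries. Krt8 and Krt18 were each other's most similar gene among all 12777 others (r = 0.985), and also over the 11 samples outside the double KO (r = 0.971). In RefSeq they are neighbours, 23873 bases apart. Cldn7 was closest to Krt8 (rank 1, r = 0.973). Epcam was the fourth most similar gene for Cldn6 (rank 4, r = 0.98), as was Cldn4 for Epcam. Cdh1 stood further from the others, with Cldn4 at rank 409 (r = 0.89), and outside the double KO its highest r with another of the 10 was −0.146 (Esrp1). Over those 11 samples, Krt8 was at rank 9 for Cldn7 and Epcam at rank 29 for Cldn6. The closest of the 10 to Epcam was then Esrp1 (rank 5, r = 0.905).

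For each gene the most similar gene outside the 10 was also read. It was Gcnt2 for Cdh1 (r = 0.985), Rhox9 for Epcam (0.99), Wfdc2 for Cldn4 (0.995), Rhox6 for Cldn6 (0.985) and Nlrc4 for Cldn7 (0.973). It was Caskin2 for Ocln (0.902), Tmem88 for Esrp1 (0.915), Car4 for Krt7 (0.974), Dkk1 for Krt8 (0.971) and Mbnl3 for Krt18 (0.982). These values are over the 13 samples. Over the 11 samples outside the double KO, another gene took this place in each case.

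The related genes were read from 6 lists, of which 53 of 88 genes were in the matrix. These lists, too, were chosen with earlier results of these data known. In the double KO against WT, 25 were lower and 9 higher, with a median log2 fold change of −0.97. The shares over all genes were 21.5% lower and 27.4% higher. Among regulators and surface proteases of epithelia, 11 of 16 were lower and 1 higher. Spint1, a surface protease inhibitor, fell from 46.9, 47.2 and 72.6 CPM to at most 0.126 CPM (−8.00, SE 0.28, limma adjusted p 3.7e-10), and Ap1m2, the epithelial clathrin adaptor subunit, fell as well (−6.19, SE 0.46). Ehf, an epithelial Ets factor, was the gene that rose, from 0 reads in WT to between 0.428 and 2.53 CPM in the double KO libraries (adjusted p 0.0309). Its highest library had 1.405 CPM in the miR-290 KO iPSC and 2.07 CPM in the miR-302 KO iPSC. Against each single KO, 0 of these 16 genes were called higher in the double KO.

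Of 14 other tight junction and polarity genes, 7 were lower and 3 higher. The polarity gene Crb3 fell by 4.97 (SE 0.80) and the scaffold gene Tjp3 by 4.11 (SE 0.48), while the paracingulin gene Cgnl1 (2.62, SE 0.33) and the ZO-1 gene Tjp1 (1.20, SE 0.28) rose. Of 4 other claudins, Cldn3 (−3.62, SE 0.62) and Cldn19 (−2.48, SE 0.94) fell and Cldn12 rose (1.73, SE 0.28). Of 4 other keratins, 1 was lower (Krt42, −4.59, SE 0.66) and 0 were higher. With so few genes, the count lower is near the 21.5% of all genes that were lower.

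Adherens junction partners and desmosome genes were called in either direction at shares near those over all genes. Of 7 adherens junction partners 2 were lower and 2 higher. The P-cadherin gene Cdh3 had 3.23, 2.69 and 4.82 CPM in WT and 0 reads in the double KO (called lower, limma adjusted p 1.24e-05), and Plekha7 fell by 0.97 (SE 0.29). Jup, which encodes plakoglobin, rose from 57.2, 36.3 and 95.1 CPM to between 415 and 899 CPM (3.43, SE 0.42, adjusted p 3.53e-05), and the vinculin gene Vcl rose by 1.30 (SE 0.25). Of 8 desmosome genes 2 were lower, Dsp (−2.73, SE 0.87) and Pkp2 (−1.32, SE 0.32). The other 2 called, Perp and Pkp4, rose. Perp went from 6.74, 10.8 and 3.65 CPM to between 293 and 370 CPM (5.70, SE 0.47, adjusted p 1.15e-06).

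**Figure D5:**
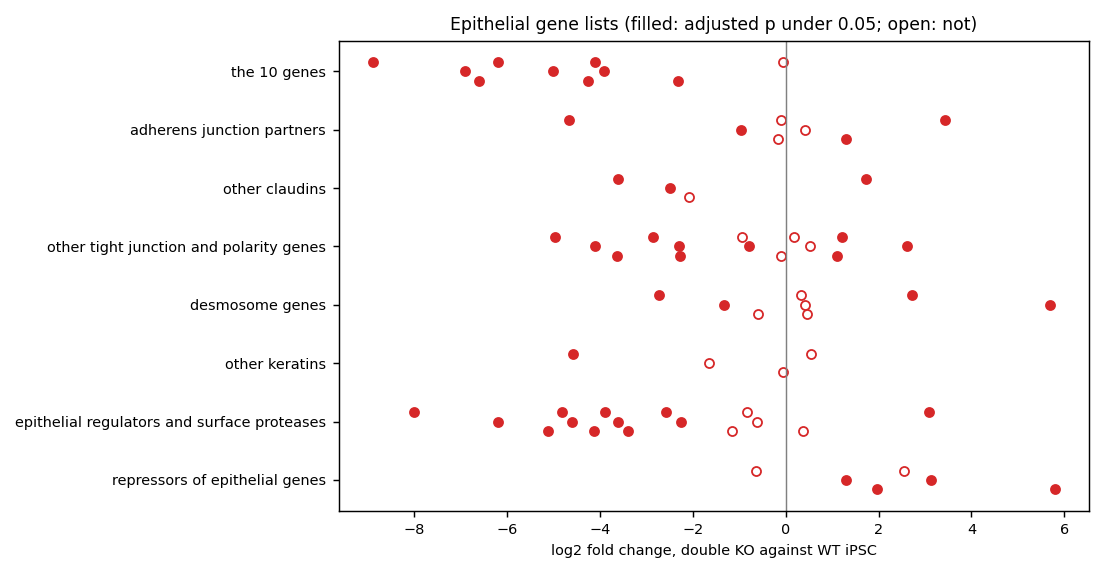
Log2 fold change of each gene in double KO against WT iPSC, by list. The 10 genes and the regulators and surface proteases lie mostly to the left of 0, the adherens junction partners and desmosome genes on both sides, and the 4 called repressors to the right.

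Of 6 repressors of epithelial genes, 4 were higher, 0 were lower and 2 were not called, where 27.4% of all genes were higher (median log2 fold change 2.27, against 0.16 for all genes). Zeb2 had 0.485, 0.843 and 0 CPM in WT and 17.1 to 37.0 CPM in the double KO (5.81, SE 0.82, limma adjusted p 9.92e-05). Snai2 had 0.970, 0.685 and 1.445 CPM in WT and 7.46 to 13.5 CPM in the double KO (3.13, SE 0.87, adjusted p 0.00984). Zeb1 and Tcf4 were the others. Against WT, 0 of the 6 were called in either single KO with limma. An unadjusted p under 0.05 was found for 1 in each, Zeb1 in the miR-290 KO (1.06, SE 0.41, adjusted p 0.215) and Snai1 in the miR-302 KO (−1.57, SE 0.58, adjusted p 0.283). Between the double KO colonies, which differed in Cdh1, Zeb2 (−0.74, SE 0.98, adjusted p 0.978) and Snai2 (−0.18, SE 1.03, adjusted p 1) were not called. The E-box letters shown above for Epcam and the claudins are those that this protein family binds, and their use in these cells was not tested.

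Markers of other cell types were read as sums. In the double KO, 7 fibroblast markers came to 2334 to 4439 CPM, against 331 to 948 CPM in the other libraries. Vim made up most of it (1761 to 3198 CPM), and the N-cadherin gene Cdh2 also rose (4.58, SE 0.57, adjusted p 3.55e-05). Fn1 was not called (−0.05, SE 0.35, adjusted p 0.915). Thy1 (−3.86, SE 0.79) and Pdgfrb (−2.72, SE 0.98) fell, and 6 of the 13 listed markers, Col1a2, Col3a1, Dcn, Lum, Postn and Prrx1, were not analysed here. Colony 1, the lower one in Cdh1, had 4439 and 4260 CPM and colony 2 had 2666 and 2334 CPM. The 6 primitive endoderm markers came to 2978 to 5574 CPM, against 489 to 2142 CPM elsewhere. Sparc, higher than in WT, made up most of this (2257 to 4869 CPM), and Col4a1 was higher as well. Dab2 and Amn were lower and Gata4 had 0 reads. The median log2 fold change of the 6 markers against WT was −1.91. Of the 13 listed markers, Gata6, Sox17, Sox7, Foxa2, Cubn, Afp and Ttr were not analysed here. The 6 neural markers came to 135 to 151 CPM, within the range of the other libraries (36.0 to 262 CPM), with Sox1 and Nes higher and Pax6 and Tubb3 lower than in WT. In the miR-290 KO, Vim, Gata3, Col4a1, Sparc, Sox1 and Nes were called higher than in WT. The part of cell types in the levels of the 10 genes was not tested.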

How the data were processed

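RNA was profiled in 19 libraries by QuantSeq 3' end sequencing (200 ng of total RNA, single-end 50-base reads, per the labels' protocols). The submitters' processing notes name mm10, Trim Galore 0.66, STAR, Salmon 1.4.0, FastQC 0.11.9, MultiQC, limma and DESeq2 1.34.0, without their order. The deposited expression matrix holds log2 values, although its name speaks of counts, and its normalization is not given in the sources used here. The deposited values step as whole reads do, and reads were recovered for 12233 of 12778 genes (95.7%), 99.6% of whose values were whole within 0.02 reads, after a prior of 2.41 reads on average. CPM were computed from these reads.

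The authors' deposited tables of comparisons give log2 fold changes, adjusted p-values and a mean expression score for genes at an adjusted p of at most 0.05, per the file headers and values. Of the matrix columns, 6 belong to no sample here and were not used.

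Libraries of a colony were averaged, which gave 13 samples in 6 groups. The log2 values were fitted with limma 3.58.1 in R 4.3.3 (trend on the mean, no filter, 7 residual degrees of freedom), with Benjamini-Hochberg adjustment over all genes. The double KO colonies were compared in a fit over libraries. The code was tested on simulated data. Exact read ratio intervals are Clopper-Pearson at 95%, and 0 reads were set to a floor of 3 reads over the group for ratios. Promoters and microRNAs came from RefSeq tables.

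The genes named are the 10 genes, from each related list at most the 2 called genes with the largest fall and rise, genes called in a single KO, the most similar gene outside the 10, and markers by their sums. Further genes chosen after their values were seen are the remaining repressors, those called between colonies and single markers. The 10 genes and the lists were chosen with earlier results of these data known. Alternatives were the scaling, a low-value filter, log2 of CPM plus 1, trend, sample weights, samples fitted, unit of replication, the replicate block and leaving out samples or libraries. Leaving out library 2 of miR-290 KO colony 1 was chosen after seeing the data.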

Additional observations from a re-analysis of the deposited data

Results flagged for a closer look

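In sets of 4 libraries of a gene and group, 5 of 30 had a library far from the others, where chance alone sets about 1 in 20 apart. Library 2 of miR-290 KO colony 1 stood above the other 3 miR-290 KO iPSC libraries in Cldn4 (286 CPM), Cldn7 (8.502 CPM), Krt7 (33.6 CPM) and Krt18 (317 CPM). These 4 values come from 1 library. In the double KO, library 1 of colony 2 stood apart in Cldn6 (0.057 CPM), which is 1 read against 0 in the others. Without library 2 of miR-290 KO colony 1, the number of the 10 genes called was unchanged in each comparison over samples. The difference of Cldn7 between the single KO iPSC went from 2.56 to 2.31 (limma adjusted p 0.0653).

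The change of the double KO differed from the sum of both single KO changes in 8 genes, tested as an interaction with limma. The term was −3.31 for Cdh1, −3.47 for Epcam, −8.83 for Cldn4, −5.39 for Cldn6, −3.34 for Cldn7, −4.29 for Krt7, −6.50 for Krt8 and −6.91 for Krt18. For Cldn4, Cldn6, Cldn7, Krt7 and Krt18, with few or no reads in the double KO, the fitted size depends on the prior. Over the alternatives the term ran from −9.20 to −6.79 for Cldn4 and from −7.83 to −5.17 for Krt18.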

How the results depend on the processing

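Of 65 results for single genes, 42 kept direction and side of the threshold in every alternative. Of 1574 values, 1488 did so, 36 kept the direction and lost the call, 22 gained one and 28 changed sign. The changes of sign were in values near 0 that were not called. Ocln in the double KO against WT was 0.23 on log2 of CPM plus 1, 0.13 with sample weights and 0.44 with the replicate block, and ran from −1.88 to 1.75 when 1 sample was left out. In the miR-290 KO against WT, Epcam was 0.0125 with sample weights (−0.57 to 0.55 with 1 sample left out), Cldn4 −0.0029 without library 2 of miR-290 KO colony 1 (−0.12 to 0.62) and Esrp1 ran from −1.67 to 0.79. Cldn6 there was −0.12 with centred libraries, −0.0094 with the replicate block, −0.35 without library 2 of miR-290 KO colony 2 and −0.18 without library 2 of colony 1 (−0.98 to 0.99), and Ocln was −0.051 with centred libraries, −0.36 without library 2 of miR-290 KO colony 2 and −0.27 without library 2 of colony 1 (−0.48 to 0.58). In the miR-302 KO, Cdh1 ran from −0.14 to 0.12 and Ocln from −0.34 to 0.77 with 1 sample left out.

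The number of the 10 genes called between the single KO iPSC was 1 with the filter, on log2 of CPM plus 1 or with no trend, 4 with each library as a sample, 3 with a colony correlation, 3 with the replicate block and 0 to 2 with 1 sample left out. In ESC it was 1 with no trend, sample weights, each library as a sample, a colony correlation or without library 2 of miR-290 KO colony 2, 0 with the replicate block or the compared groups alone, and 0 to 3 with 1 sample left out. With 1 sample left out it was 0 to 1 for the miR-302 KO against WT and 5 to 8 for the additivity term. The cause of these moves was not tested. Cdh1 in the double KO against the miR-290 KO had an adjusted p of 0.0525 with the compared groups alone.

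Same-numbered libraries did not deviate together (mean correlation 0.014, against −0.011 for other numbers), so the replicate block pairs samples by number only. Of all genes, the counts called ran over the alternatives from 2 to 409 in the miR-290 KO against WT (201 as reported), 3 to 1273 in the miR-302 KO against WT (4), 6 to 1279 between the single KO iPSC (287), 0 to 357 in ESC (75), 1834 to 3817 for the additivity term (3021), 2682 to 5272 for the double KO against the miR-290 KO (4143) and 159 to 373 between colonies (370). For iPSC against ESC they ran from 0 to 7 in the miR-290 KO and from 0 to 955 in the miR-302 KO (0 in both as reported). Depth limits Cldn4, Cldn6, Cldn7, Krt7 and Krt18 in the double KO, where a group floor of 3 reads is 0.0469 CPM.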
